A study of Mus musculus with 40 samples.

Results

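A set of 10 genes, 8 that move, store or sense iron and the 2 metallothioneins Mt1 and Mt2, was followed through 10 groups of sorted mouse cells. They were chosen by name and not by a rule on their values, but earlier results of these data were known. Slc11a1, Slc11a2, Tfrc, Slc39a14, Slc40a1, Fth1, Ftl1, Ireb2, Mt1 and Mt2 are 10 of the 45706 genes listed in the deposited tables. All 10 have a value in every one of the 40 libraries. Values are given per library in RPKM, a read count scaled to gene length and library size, and differences come from the deposited expected counts.

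Iron enters cells mainly as transferrin bound to the transferrin receptor Tfrc, passes membranes as the ferrous ion through Slc11a2 (DMT1) or, in the phagosomes of myeloid cells, through Slc11a1 (NRAMP1), and is stored inside shells of ferritin heavy and light chains, Fth1 and Ftl1. Slc39a14 (ZIP14) brings in zinc, manganese and iron that is not bound to transferrin, and Slc40a1 (ferroportin) is the known iron exporter of mammalian cells, removed from the membrane when the peptide hormone hepcidin binds it. When iron is scarce, the iron regulatory proteins, one of them encoded by Ireb2, bind hairpins called iron-responsive elements in transcripts: a hairpin in the 5′ UTR blocks translation, and hairpins in the 3′ UTR of Tfrc protect its mRNA from decay. Mt1 and Mt2 encode small cysteine-rich proteins that bind zinc and copper and whose transcripts are induced by metals, glucocorticoids and inflammatory signals.

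Each group held 4 libraries of total RNA from cells sorted by flow cytometry. The tumor-bearing mice carried Apc fl/fl and Cdx2CreERT2 (genotype label Cdx2CreERT2 - Apc fl/fl, with strain labels that differ in every library and run from C57Bl6/Sv129 to C57Bl6/Sv152): a tamoxifen-inducible Cre under the Cdx2 promoter, which is active in gut epithelium, deletes the tumor suppressor Apc, and 25 mg/kg of tamoxifen was given at 8 to 10 weeks of age. The healthy mice were C57Bl6 without transgene or agent. Blood neutrophils and blood monocytes came from both kinds of mice and the same gates were used in tumors: neutrophils were CD45+ EpCAM- CD11b+ MHCII- Ly6C-low Ly6G+, and monocytes CD45+ EpCAM- CD11b+ MHCII- Ly6C-high Ly6G-. Epithelial cells (CD45- EpCAM+) and stromal cells (CD45- EpCAM-) came from tumors and from healthy colon. Strain, transgene, tamoxifen and tumor cannot be told apart wherever tumor-bearing mice are compared with healthy ones, while tumor and blood cells of tumor-bearing mice share all of these but differ in tissue of origin and digestion. The labels do not say that libraries of a group came from separate animals, so each p-value measures only the spread between these libraries, which may be technical. Sample titles share numbers between cell types, and some read as pools of mice. For sorted tumor cells, the study describes its plotted RNA-sequencing values as taken on individually derived samples. In bulk samples, fewer cells of a type and less RNA per cell cannot be told apart.

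The iron-responsive elements are shown first because the form searched was found in 4 of the 10 genes, in the UTRs annotated by GENCODE M21 on mm10. Each 30-base stretch holds the loop CAGTGN in capitals between paired arms. In the 5′ UTRs the hairpins lay at chr19:9982732-9982761 (+) in Fth1, chr7:45459778-45459807 (-) in Ftl1 and chr1:45925464-45925493 (-) in Slc40a1, as follows.
Fth1, 5′ UTR: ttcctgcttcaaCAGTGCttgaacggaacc
Ftl1, 5′ UTR: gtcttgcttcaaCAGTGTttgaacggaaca
Slc40a1, 5′ UTR: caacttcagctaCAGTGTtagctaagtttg
In Tfrc, 4 hairpins lay in the 3′ UTR, at chr16:32631219-32631248, chr16:32631598-32631627, chr16:32631663-32631692 and chr16:32631710-32631739 (+), in that order below.
Tfrc, hairpin 1: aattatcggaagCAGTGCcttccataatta
Tfrc, hairpin 2: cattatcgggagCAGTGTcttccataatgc
Tfrc, hairpin 3: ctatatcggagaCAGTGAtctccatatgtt
Tfrc, hairpin 4: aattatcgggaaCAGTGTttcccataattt

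The form searched spanned 17 letters, a C, 5 bases that pair with the 5 bases after the loop, and the loop of 6 letters. It occurs in the 5′ UTR of 28 of 21875 genes with a protein-coding transcript (0.128%) and in the 3′ UTR of 127 (0.581%). A match is a description of the letters and no measurement of protein binding. An element with an unpaired base in these arms would be missed, so a gene without a match may still carry one.

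The promoter of Mt2 is shown because metallothionein genes are induced through metal response elements. The letters searched, TGCNCNC, are a looser form of their core TGCRCNC, in which R is A or G. In the RefSeq window from 250 bases before to 50 bases after the start (GRCm38.p6), Mt2 held 6 such matches on either strand, Mt1 3, Tfrc 3 (1 at its other start), Slc11a1 2, and Fth1, Ftl1 and Ireb2 0. Of 32851 such windows in the genome, 51.033% held at least 1 match, 7.099% at least 3 and 0.225% at least 6. The stretch chr8:94172478-94172517 (+), 140 to 101 bases before the start of Mt2, holds a pair of these matches in capitals. Of the pair, TGCGCTC also has the stricter core and TGCTCTC does not.
Mt2, promoter: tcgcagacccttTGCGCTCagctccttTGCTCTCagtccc

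Libraries summed to 10717873 to 38002939 expected counts, of which mitochondrial genes took 5.34% to 83.9%, the highest share being in healthy epithelial replicate 4. Neutrophil markers (6 genes, among them S100a8 and Ly6g) summed to 1904 to 19946 RPKM in the 3 neutrophil groups and to at most 187 RPKM in monocytes. Epithelial transcripts were present in tumor neutrophils: all 10 markers were detected in each library, at a median of 79.5%, 12.7%, 17.5% and 4.90% of their mean level in tumor epithelial cells in replicates 1 to 4. In tumor monocytes this median was 0.902% to 16.6%, and in blood libraries at most 0.208%. The tumor stromal libraries summed to 5.97 to 23.97 RPKM over 6 fibroblast markers, against 355 to 2010 RPKM in healthy stromal cells, and replicates 1 and 2 held epithelial markers at 93.9% and 48.4%. Hemoglobin and other erythroid markers varied from library to library within the blood groups. Values with and without such libraries are given where they touch a result.

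**Figure D1:**
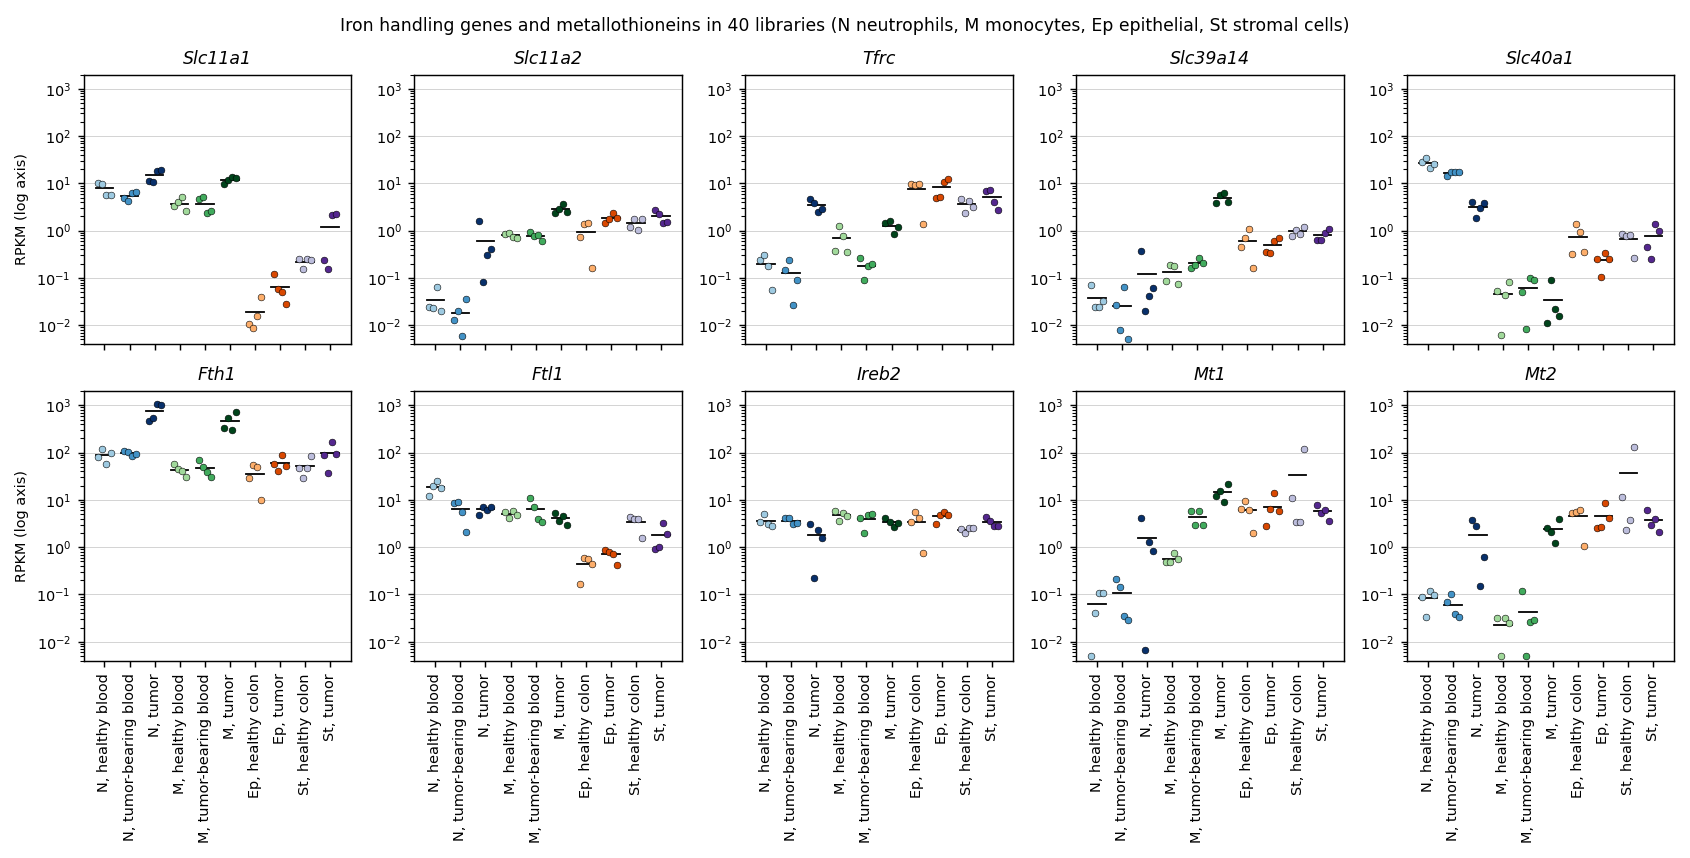
Level of each of the 10 genes in every library (points, RPKM on a log axis) for the 10 groups, with the group mean as a bar; values below the drawing floor of 0.005 RPKM are drawn at it. Fth1 lies highest in tumor neutrophils and tumor monocytes, Slc40a1 in the 3 neutrophil groups, and Slc39a14 in tumor monocytes.

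Of 90 pairs of groups next to each other in the order of a gene's mean RPKM, 17 had library ranges that did not overlap, so most neighbours in these orders do not differ beyond their spread. On the CPM scale (counts scaled to library size) after TMM scaling over all libraries, 15 pairs did not overlap, and 8 of the 10 genes kept the same highest group. The comparisons below took each group against its counterpart with edgeR's quasi-likelihood test, adjusted over all genes tested by the Benjamini-Hochberg method, and a gene passed at an adjusted p under 0.05.

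In the neutrophils, the step from the blood to the tumor of tumor-bearing mice went with a higher level of Tfrc, Fth1, Slc11a1 and Slc11a2 and a lower level of Slc40a1. Of the 8 members with enough counts to be tested, 5 passed, 4 higher and 1 lower; of all 13674 genes tested, 17.9% passed, 12.5% higher and 5.39% lower. Over the 8 members the log2 fold change had a median of 1.74, over all genes of 0.11. With the study's added limit of a log2 fold change beyond 1.5, 3 were higher (11.9% of all genes) and 1 lower (4.41%). The library ranges did not overlap for 6 of 8 members, as for 27.4% of all genes.

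Tfrc (ENSMUSG00000022797, chr16:32608920-32632794, mm10) measured 4.58, 3.81, 2.49 and 2.82 RPKM in tumor neutrophils 1 to 4, against 0.144, 0.242, 0.0269 and 0.0906 RPKM in blood neutrophils of tumor-bearing mice. Every tumor library was above every blood library. Tumor neutrophils were 29.7-fold higher (log2 fold change 4.89, SE 0.64, 95% CI 3.49 to 6.30), with an adjusted p of 0.000917 in edgeR. Epithelial cells also express Tfrc, at 4.99 to 12.4 RPKM in tumor epithelial libraries, so the epithelial transcripts in tumor neutrophils move in the same direction. Replicate 1, with epithelial markers at 79.5% of their epithelial level, measured 4.58 RPKM, and replicate 4, with these markers at 4.90%, measured 2.82 RPKM; their part in the difference was not tested.

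Fth1 (ENSMUSG00000024661, chr19:9980598-9985098), the ferritin heavy chain, which oxidizes iron as it is stored, measured 474, 538, 1069 and 1010.4 RPKM in tumor neutrophils, against 108, 103, 83.8 and 92.6 RPKM in their blood counterparts. All tumor libraries lay above all blood libraries, and above every epithelial library, which measured 9.93 to 87.0 RPKM. Tumor neutrophils were 8.31-fold higher (log2 fold change 3.06, SE 0.41, 95% CI 2.15 to 3.96), with an adjusted p of 0.000968.

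The light chain Ftl1 (ENSMUSG00000050708, chr7:45457944-45459884) did not pass. Tumor neutrophils measured 4.78, 7.01, 6.25 and 7.13 RPKM and blood neutrophils 8.50, 8.90, 5.67 and 2.06 RPKM, with overlapping ranges. The log2 fold change was 0.15 (SE 0.50, 95% CI -0.95 to 1.25, adjusted p = 0.862 in edgeR). Both ferritin genes have processed copies with near-identical sequence, between which the counting could split reads. Fth-ps2 took 18.5% to 24.1% of the counts of Fth1 and itself in every group, Ftl1-ps1 4.22% to 11.5% and Ftl1-ps2 2.60% to 10.2%. Reads counted to other copies or not counted at all are not seen in these shares. They therefore set no upper limit to the uncertainty of the levels of both ferritins.

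Slc40a1 (ENSMUSG00000025993, chr1:45908068-45926523) was the member that fell. Tumor neutrophils measured 3.99, 1.81, 3.02 and 3.88 RPKM, against 14.3, 17.5, 17.6 and 17.4 RPKM in blood neutrophils of tumor-bearing mice. The tumor libraries averaged 3.17 ± 1.008 RPKM and the blood libraries 16.7 ± 1.61 RPKM (SD, n = 4), with no overlap. The log2 fold change was -2.41 (SE 0.30, 95% CI -3.08 to -1.75), 5.33-fold lower, with an adjusted p of 0.000789. Epithelial libraries of tumors measured 0.104 to 0.340 RPKM, below every tumor neutrophil library, so the epithelial transcripts in tumor neutrophils move in the same direction. Replicate 1, with epithelial markers at 79.5%, measured 3.99 RPKM, and replicate 4, with these markers at 4.90%, measured 3.88 RPKM. Neutrophil markers summed to 1904 to 12237 RPKM in tumor and 15242 to 19946 RPKM in these blood neutrophils. Their part in the difference was not tested.

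Slc11a1 (ENSMUSG00000026177, chr1:74375195-74386062), the transporter that takes metal ions out of phagosomes, measured 11.3, 10.5, 18.6 and 19.6 RPKM in tumor neutrophils and 4.85, 4.17, 6.38 and 6.57 RPKM in blood neutrophils. The ranges did not overlap. The log2 fold change of 1.48 (SE 0.35, 2.78-fold) passed at an adjusted p of 0.0148, but not without blood replicate 1 (1.34, adjusted p = 0.0652) or blood replicate 2 (1.29, adjusted p = 0.0702). Epithelial libraries held at most 0.123 RPKM.

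Slc11a2 (ENSMUSG00000023030, chr15:100387898-100425072), the ferrous iron transporter of endosomes and of absorbing epithelium, was at 1.59, 0.0838, 0.310 and 0.400 RPKM in tumor neutrophils and at 0.0131, 0.0199, 0.00596 and 0.0351 RPKM in blood neutrophils. The blood values rest on 1.84 to 13.4 expected counts per library, so the fitted log2 fold change of 4.82 (SE 0.93, adjusted p = 0.00545) depends on the prior count. Replicate 1, the library with epithelial markers at 79.5% of their epithelial level, was the highest, and tumor epithelial libraries measured 1.48 to 2.37 RPKM. Without it the log2 fold change was 3.88 (SE 0.77, adjusted p = 0.0108), and the epithelial part in the rest was not tested. The gene overlaps Gm5475 on the opposite strand, and the amplification kit does not mark strand, so their reads cannot be told apart by strand.

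Slc39a14 and Ireb2 did not pass. Slc39a14 (ENSMUSG00000022094, chr14:70303469-70351425) measured 0.369 RPKM in tumor neutrophil replicate 1 and 0.0201 to 0.0615 RPKM in the other 3, against 0.00303 to 0.0655 RPKM in blood neutrophils (log2 fold change 2.00, SE 1.09, adjusted p = 0.233). Ireb2 (ENSMUSG00000032293, chr9:54863789-54912530), one of the regulatory proteins, measured 3.10, 0.226, 2.28 and 1.56 RPKM in tumor and 3.16 to 4.14 RPKM in blood neutrophils. Its log2 fold change of -1.16 (SE 0.51) had an adjusted p of 0.140. Without tumor replicate 2, the lowest library, it was -0.87 with an adjusted p of 0.0417.

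Mt1 and Mt2 did not pass the filter on low counts in the neutrophil comparison and were not tested. Both had few counts in blood neutrophils, and each was also low in a tumor neutrophil library. Mt1 (ENSMUSG00000031765, chr8:94179082-94180327) had 124, 0.215, 44.2 and 29.0 expected counts in tumor neutrophils 1 to 4 and 1.00 to 8.90 in blood neutrophils of tumor-bearing mice. Mt2 (ENSMUSG00000031762, chr8:94172664-94173568) had 114, 96.5, 5.35 and 21.9 expected counts in tumor neutrophils and 1.11 to 3.57 in blood neutrophils. Both genes were highest in replicate 1 and parted in replicate 2, where Mt1 was close to absent and Mt2 was near its highest. Tumor epithelial libraries measured 2.76 to 13.7 RPKM of Mt1 and 2.60 to 8.58 RPKM of Mt2, and the epithelial part in the tumor neutrophil counts was not tested. Mt2 overlaps the antisense gene Gm45774.

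**Figure D2:**
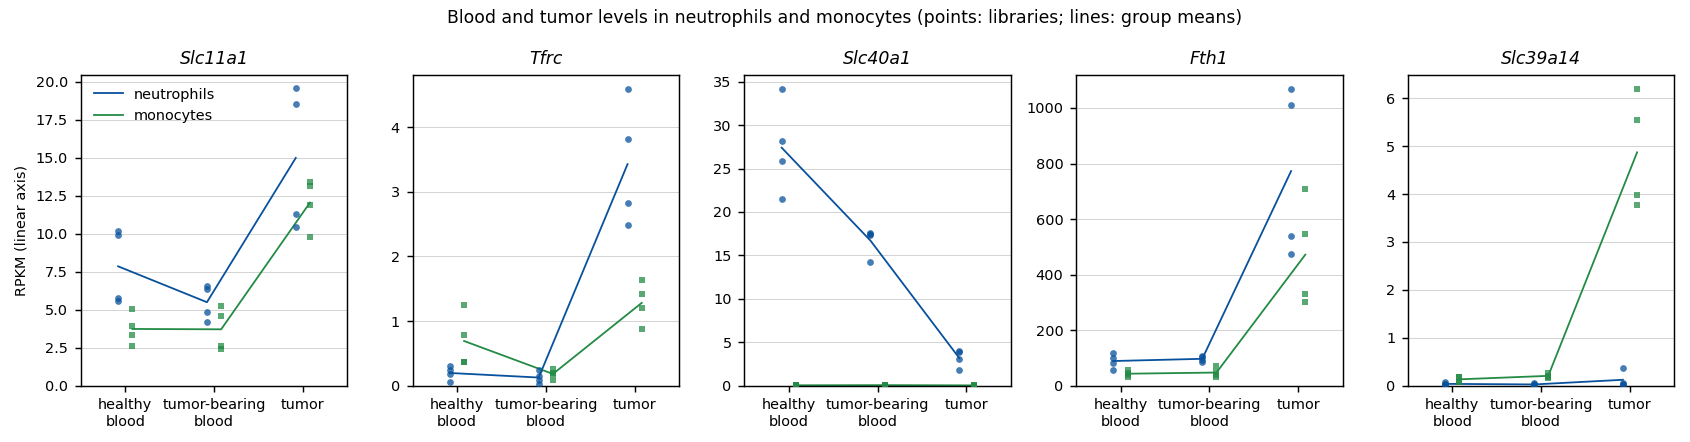
Slc11a1, Tfrc, Slc40a1, Fth1 and Slc39a14 in healthy blood, tumor-bearing blood and tumor (RPKM on linear axes from 0), for neutrophils (circles) and monocytes (squares). Points are libraries and lines join group means: Fth1 and Tfrc lie highest in both tumor cell types, Slc40a1 steps down from healthy blood to tumor in neutrophils and stays near 0 in monocytes, and Slc39a14 is high in tumor monocytes.

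In monocytes, the same step went with higher levels of importers, of Fth1 and of both metallothioneins. All 10 members were tested and 7 passed, every one of them higher in tumor monocytes; of 15280 genes tested, 17.1% passed and 10.9% were higher. A median log2 fold change of 2.08 was found over the members, and of -0.03 over all genes. The 7 also passed the study's added limit, which 7.76% of all genes did in this direction. The library ranges did not overlap for 7 of 10 members, as for 27.2% of all genes. None was lower, as 6.28% of all genes were, or beyond the added limit downward, as 3.89% were.

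Slc39a14 had the smallest adjusted p of the 7. Tumor monocytes measured 3.76, 5.55, 6.19 and 3.98 RPKM and blood monocytes of tumor-bearing mice 0.164, 0.191, 0.260 and 0.206 RPKM. The log2 fold change was 4.83 (SE 0.30, 28.4-fold, adjusted p = 7.5e-06). No other group reached these levels: stromal libraries, next in the order, measured 0.619 to 1.21 RPKM and epithelial libraries 0.160 to 1.06 RPKM.

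Fth1 was at 330, 548, 299.8 and 710.1 RPKM in tumor monocytes and at 70.9, 48.9, 38.2 and 31.1 RPKM in blood monocytes. The log2 fold change was 3.56 (SE 0.33, 11.8-fold, adjusted p = 6e-05). Ftl1 again did not pass, at 2.90 to 5.41 RPKM in tumor and 3.35 to 10.7 RPKM in blood (log2 fold change -0.32, adjusted p = 0.641).

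The importers were higher as well. Tfrc measured 1.42, 1.64, 0.870 and 1.20 RPKM in tumor monocytes and 0.261, 0.0915, 0.176 and 0.198 RPKM in blood monocytes (log2 fold change 3.07, SE 0.39, adjusted p = 0.000502). Slc11a1 measured 9.79 to 13.4 RPKM in tumor and 2.39 to 5.26 RPKM in blood (1.96, SE 0.29, adjusted p = 0.0013). Slc11a2 measured 2.39 to 3.71 RPKM in tumor and 0.609 to 0.928 RPKM in blood (2.15, SE 0.27, adjusted p = 0.000474). In each of the 3, the lowest tumor library lay above the highest blood library.

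Mt1 was at 12.3, 15.7, 9.16 and 22.2 RPKM in tumor monocytes and at 5.69, 2.97, 5.74 and 2.98 RPKM in blood monocytes (log2 fold change 2.01, SE 0.38, 4.03-fold, adjusted p = 0.00459). Tumor replicate 1, with epithelial markers at 0.902% of their epithelial level, lay within the range of the other 3. Mt2 had 74.3, 85.2, 38.2 and 161 expected counts in tumor monocytes and 4.70, 0, 0.814 and 0.881 in blood monocytes. Its fitted log2 fold change of 5.80 (SE 0.92, adjusted p = 0.00188) depends on the prior count and was 6.83 without blood replicate 1, the only blood library with more than 1 count.

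Slc40a1 and Ireb2 did not pass in monocytes. Slc40a1 was near absent, at most 0.0996 RPKM in any monocyte library, and Ireb2 was 2.72 to 4.24 RPKM in tumor monocytes with a log2 fold change of 0.03 (adjusted p = 0.964). Early response and heat shock genes known to be induced by tissue digestion (8 genes such as Fos, Jun and Hspa1a) summed to 114 to 306 RPKM in tumor monocytes and 45.6 to 152 RPKM in blood monocytes of tumor-bearing mice. In neutrophils these sums were 184 to 343 and 59.6 to 137 RPKM. The part of digestion in the differences between blood and tumor was not tested.

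An interaction term compared neutrophils with monocytes in the change between blood and tumor. None of the 10 members passed in edgeR, although 5 had an unadjusted p under 0.05 and DESeq2 called 2; of 17465 genes tested, 3.99% passed, 2.73% more positive in neutrophils and 1.26% more negative. The nearest was Slc11a2, with a log2 difference of 2.51 (SE 0.81, adjusted p = 0.0876), next Slc39a14 with -2.96 (SE 1.03, adjusted p = 0.109) and Tfrc with 1.69 (adjusted p = 0.165). Without tumor neutrophil replicate 1, Slc39a14 passed at -4.17 (adjusted p = 0.0213), and without tumor neutrophil replicate 2, Slc11a2 passed at 2.83 (adjusted p = 0.0194). These tests do not show that the members respond alike in the 2 cell types.

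Within the tumor, neutrophils held more of the exporter Slc40a1 and of Tfrc than monocytes, and less of the importer Slc39a14. Of 10 members, 2 were higher and 1 lower in neutrophils, against 4.74% and 2.97% of 15003 genes, or 7.71% in both directions. Slc40a1 was at 1.81 to 3.99 RPKM in tumor neutrophils and at 0.0113 to 0.0902 RPKM in tumor monocytes (log2 fold change 7.004, SE 0.73, adjusted p = 0.000724), and at 8.02 without tumor monocyte replicate 2, the highest monocyte library. Slc39a14 went the other way (log2 fold change -5.12, SE 0.74, adjusted p = 0.00302, and -6.38 without tumor neutrophil replicate 1). Tfrc was higher in neutrophils (1.98, SE 0.40, 3.93-fold, adjusted p = 0.0124), a call lost without tumor monocyte replicate 1 (adjusted p = 0.0599) or 4 (adjusted p = 0.0773). Tumor epithelial libraries held 4.99 to 12.4 RPKM of Tfrc. Epithelial markers were at 4.90% to 79.5% of their epithelial level in tumor neutrophils and at 0.902% to 16.6% in tumor monocytes. The epithelial part in this difference was not tested.

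Leaving out tumor neutrophil replicate 1, the library with the highest epithelial level, raised the count from 3 to 6 of 10 members, while the share of all genes called rose from 7.71% to 13%. The 3 added were Slc11a2, lower in neutrophils (-2.99, adjusted p = 0.00622), and Fth1 (1.45, adjusted p = 0.00945) and Slc11a1 (0.97, adjusted p = 0.025), both higher. Mt1 passed without tumor neutrophil replicate 2, at -2.61 with an adjusted p of 0.0191.

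In healthy blood, neutrophils and monocytes already held different iron genes. Of 9 members tested, 4 were higher and 2 lower in neutrophils, in a comparison in which 50.8% of 15033 genes passed, 24.2% higher and 26.6% lower. The ranges of 8 members did not overlap, as for 52.7% of all genes. Slc40a1 stood at 28.2, 34.1, 21.5 and 25.9 RPKM in healthy blood neutrophils and at 0.00634 to 0.0801 RPKM in healthy blood monocytes, a log2 fold change of 9.96 (SE 0.63, adjusted p = 4.74e-06). Red cell precursors are known to express ferroportin. Monocyte replicates 1 to 3 held erythroid markers at summed levels of 384 to 632 RPKM and at most 0.0531 RPKM of Slc40a1. Neutrophil replicates 3 and 4 held 4.31 and 9.34 RPKM of these markers and 21.5 and 25.9 RPKM of Slc40a1. The part of red cell precursors was not tested.

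Ftl1 was higher in neutrophils, at 12.2, 19.5, 24.5 and 17.97 RPKM against 5.49, 4.20, 5.93 and 4.76 RPKM in monocytes (log2 fold change 2.67, SE 0.28, 6.38-fold, adjusted p = 6.15e-05). Fth1 (1.81, SE 0.21, adjusted p = 0.000118) and Slc11a1 (1.83, SE 0.26, adjusted p = 0.000313) were higher as well. Slc11a2 was lower, at 0.0203 to 0.0656 RPKM in neutrophils against 0.693 to 0.896 RPKM in monocytes (-3.69, SE 0.51, adjusted p = 0.000293, and -4.35 without neutrophil replicate 3). Mt1 was lower too (-2.27, SE 0.68, adjusted p = 0.0194), but rests on 0 to 4.97 expected counts per neutrophil library and was lost without neutrophil replicate 2 (adjusted p = 0.072) or monocyte replicate 3 (adjusted p = 0.0538).

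**Figure D3:**
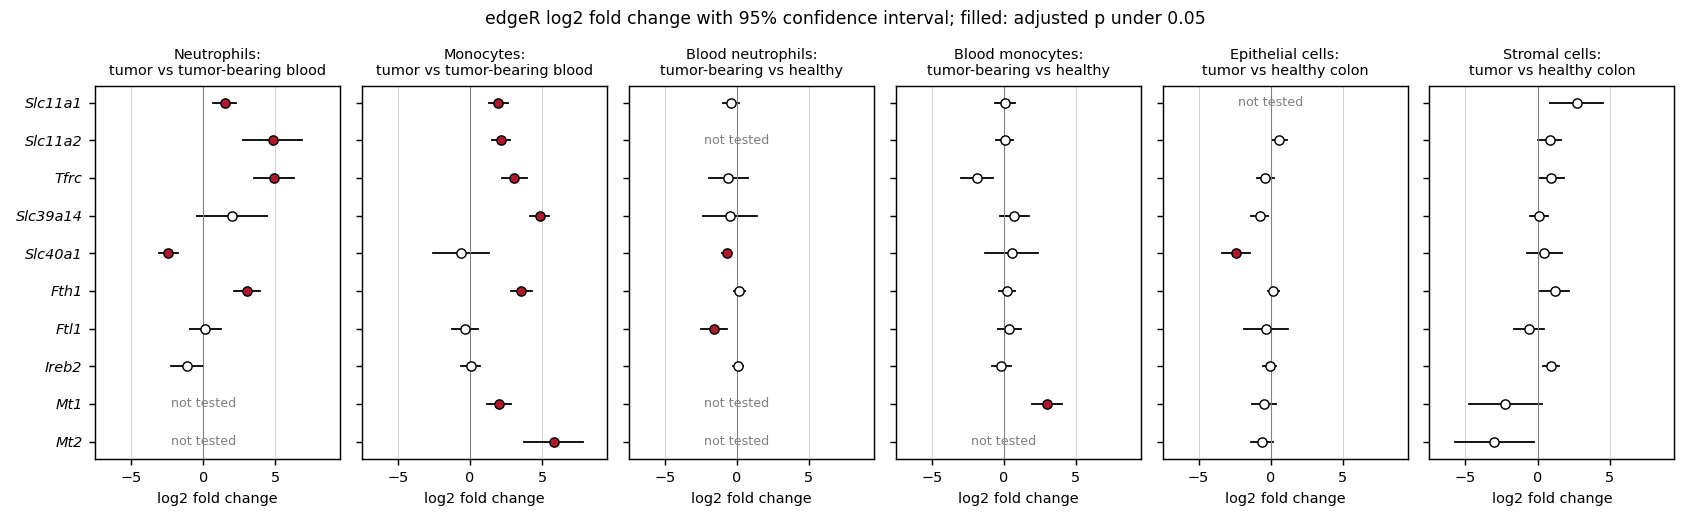
Log2 fold change of each tested member (point) with its 95% confidence interval (line) in 6 comparisons, filled where the adjusted p was under 0.05. In tumor against blood monocytes 7 filled points lie to the right of 0, and Slc40a1 lies to the left of 0 in tumor against blood neutrophils and in tumor against healthy epithelial cells.

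Between blood neutrophils of tumor-bearing and healthy mice, 2 of 7 members tested were lower and none higher, against 6.52% of 13360 genes in both directions, 3.59% higher and 2.93% lower. Slc40a1 was 1.58-fold lower (log2 fold change -0.66, SE 0.16, 95% CI -1.005 to -0.31, adjusted p = 0.0345), with 14.3 to 17.6 RPKM in tumor-bearing mice and 21.5 to 34.1 RPKM in healthy mice. Ftl1 was 2.97-fold lower (-1.57, SE 0.40, adjusted p = 0.0449), with 2.06 to 8.90 against 12.2 to 24.5 RPKM. The library ranges did not overlap for either gene, as for 14.1% of all genes.

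Both calls were marginal. Slc40a1 kept its call in 1 of 8 fits that left out a library each and Ftl1 in 2 of 8, with adjusted p-values of up to 0.109 and 0.139. The blood neutrophils of tumor-bearing mice also held more transcripts of immature neutrophils: Ltf, Ngp, Camp and 3 other genes summed to 169.7 to 524 RPKM, against 4.15 to 15.6 RPKM in healthy mice, with Elane at 0 in the former, and their part in these differences was not tested. Without Slc40a1 and Ftl1, 5 tested members had log2 fold changes between -0.60 and 0.17 with adjusted p-values of 0.339 or more.

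In blood monocytes, 1 of 9 members tested passed, in a comparison in which 0.216% of 15313 genes passed, 0.0914% higher and 0.124% lower. Mt1 was at 5.69, 2.97, 5.74 and 2.98 RPKM in tumor-bearing mice and at 0.487, 0.479, 0.769 and 0.557 RPKM in healthy mice. Every library of tumor-bearing mice was above every healthy one, and the difference on the log2 scale was 3.00 (SE 0.46, 95% CI 1.98 to 4.02, adjusted p = 0.0354). The difference stayed between 2.82 and 3.16 in the 8 fits that left out a library each, while the adjusted p rose to 0.0527 to 0.178, past the threshold in all 8. Mt2 remained at 0 to 4.70 expected counts in both groups and was not tested. Tfrc was the other of 2 members whose ranges did not overlap, as those of 7.36% of all genes did not, with 0.0915 to 0.261 RPKM in tumor-bearing and 0.361 to 1.25 RPKM in healthy mice, but it did not pass (-1.86, SE 0.51, adjusted p = 0.211).

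**Figure D4:**
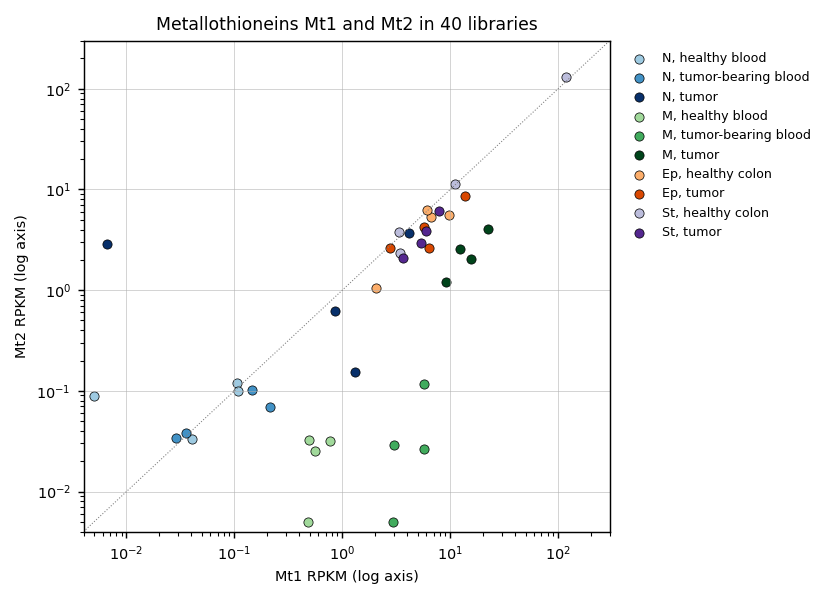
Mt2 against Mt1 in the 40 libraries (RPKM on log axes, 1 point per library, colors mark the 10 groups, the dotted line marks equal levels, and values below 0.005 RPKM are drawn there). Blood monocytes of tumor-bearing mice lie to the right of healthy ones with Mt2 near 0 in both, tumor monocytes lie above and further right, and 1 healthy stromal library lies at the upper right corner, at 119 RPKM of Mt1 and 132 RPKM of Mt2.

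In the epithelium, 1 of 9 members tested passed between tumor and healthy colon, against 22.6% of 16085 genes, 10.6% higher and 12% lower. Slc40a1, which exports absorbed iron across the basolateral membrane of intestinal epithelium, was lower in tumors. On the CPM scale after TMM, which is not lowered by the mitochondrial share of a library, tumor epithelial cells measured 8.28, 3.54, 8.15 and 7.14 and healthy epithelial cells 13.1, 41.8, 28.3 and 53.0. The ranges on this scale did not overlap. The log2 fold change was -2.40 (SE 0.45, 95% CI -3.39 to -1.41, 5.27-fold lower, adjusted p = 0.00319), and it passed in all 8 fits that left out a library each. In RPKM the ranges overlapped, at 0.104 to 0.340 against 0.314 to 1.37, and limma on log2 RPKM did not call the gene (adjusted p of 0.116 with 1 added to each value).

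The other epithelial members stayed closer to 0. Slc11a2 was 1.48 to 2.37 RPKM in tumors and 0.164 to 1.46 RPKM in healthy epithelium (0.60, SE 0.23, adjusted p = 0.0924), and Slc39a14 had a log2 fold change of -0.77 (SE 0.27, adjusted p = 0.0663). Tfrc was 4.99 to 12.4 RPKM in tumors and 1.36 to 9.76 RPKM in healthy epithelium (-0.36, SE 0.27, adjusted p = 0.385), Mt1 had -0.47 (SE 0.37, adjusted p = 0.417) and Mt2 -0.61 (SE 0.33, adjusted p = 0.229). Slc11a1 was too low to be tested.

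Among stromal cells, none of the 10 members passed between tumor and healthy colon in edgeR, although 6 had an unadjusted p under 0.05 and DESeq2 called 2; 9.55% of 19081 genes passed, 3.99% higher and 5.56% lower. Ireb2 came nearest, at 4.44, 3.52, 2.84 and 2.83 RPKM in tumors and 2.40, 1.99, 2.50 and 2.54 RPKM in healthy stroma, with ranges that did not overlap, as for 21.5% of all genes (log2 fold change 0.91, SE 0.25, adjusted p = 0.0507, and 0.0488 without tumor replicate 3b). In the same order, tumor libraries 1, 2, 3a and 3b held epithelial markers at 93.9%, 48.4%, 19.9% and 12.2% of their epithelial level. Tumor epithelial libraries held 3.09 to 5.55 RPKM of Ireb2, and the epithelial part was not tested. Slc11a1 measured 0.241, 0.151, 2.14 and 2.21 RPKM in tumor stromal libraries 1, 2, 3a and 3b and 0.152 to 0.248 RPKM in healthy stroma (2.71, SE 0.81, adjusted p = 0.0714).

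The high Slc11a1 values sat in the same libraries as neutrophil transcripts: the 6 neutrophil markers summed to 40.9, 8.46, 1508 and 511 RPKM in tumor stromal libraries 1, 2, 3a and 3b, and their part was not tested. Slc11a1 passed without tumor replicate 1 (3.05, adjusted p = 0.0488), without tumor replicate 2 (3.07, adjusted p = 0.0396), and without both, the libraries with the most epithelial transcripts (3.58, adjusted p = 0.00328). Mt1 and Mt2 had log2 fold changes of -2.25 (SE 1.12) and -3.00 (SE 1.22) with adjusted p-values of 0.253 and 0.169. These rest on healthy stromal replicate 4, at 119 RPKM of Mt1 and 132 RPKM of Mt2, where the other 3 libraries measured 3.34 to 11.2 and 2.35 to 11.3 RPKM. The same library had the highest sums of fibroblast markers, 2010 RPKM against 355 to 648, and of digestion genes, 1671 RPKM against 717 to 1040; their part was not tested.

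Whether the change from healthy to tumor tissue differed between epithelial and stromal cells was tested for all 10 members. Of these, 2 passed, both more negative in epithelium, against 15.1% of 20901 genes, 7.93% in this direction and 7.21% in the other. Slc40a1 had a log2 difference of -2.87 (SE 0.72, 95% CI -4.40 to -1.33, adjusted p = 0.0143) and passed in all 16 fits that left out a library each. Without tumor stromal replicates 1 and 2 it was -3.43 (adjusted p = 0.005). Ireb2 had -0.99 (SE 0.30, adjusted p = 0.0387), which was lost in 11 of 16 such fits and without tumor stromal replicates 1 and 2 (-0.61, adjusted p = 0.215).

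Healthy epithelial and stromal cells differed in 2 of 10 members, both higher in epithelium, against 38.1% of 18468 genes, 15.6% higher and 22.5% lower. Tfrc measured 273, 194.9, 200.4 and 138 CPM after TMM in epithelial cells and 71.5, 38.0, 61.5 and 52.4 in stromal cells (log2 fold change 1.83, SE 0.28, adjusted p = 0.000936). Ireb2 measured 71.9 to 110.4 in epithelial and 30.3 to 39.5 CPM in stromal cells (1.33, SE 0.20, adjusted p = 0.000875). In healthy epithelial replicate 4, where mitochondrial genes took 83.9% of the counts, both genes were 1.36 and 0.755 RPKM against 9.27 to 9.76 and 3.34 to 5.59 RPKM in the other 3 libraries. Without that library Slc11a1 (-3.72, adjusted p = 0.00241) and Ftl1 (-2.48, adjusted p = 0.00653) also passed, both lower in epithelium.

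Across the 40 libraries, the members did not follow a single pattern. Pearson's r of log2(RPKM + 1) was 0.81 between Mt1 and Mt2, 0.73 between Slc11a1 and Fth1, -0.73 between Slc11a2 and Slc40a1 and -0.74 between Tfrc and Ftl1. These correlations describe 40 libraries that share groups, depth and epithelial content, and are no test. The 3 genes most like each member, among 4083 with a mean of at least 5 RPKM in some group, had r of 0.796 to 0.979. Slc11a1 was closest to Ptafr (0.968), Plek and Mefv, Fth1 to Rab20 (0.936), Smim3 and Ehd1, and Ftl1 to Trim30a (0.897), Slfn2 and Trim30c. Slc40a1 was closest to Nlrp12 (0.979), followed by the microRNA genes Mir294 and Mir291b, both of which lie inside Nlrp12 on the opposite strand and may share its reads. Tfrc was closest to Parm1 (0.940), Slc11a2 to Nrip1 (0.935), Slc39a14 to Got1 (0.925) and Cd83, Ireb2 to Hnrnpul2 (0.830), Mt1 to Manf (0.861), and Mt2 to Sema3c (0.928), Myc and Egfr.

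Beyond the members, 82 other genes of iron, heme, zinc and copper handling were followed. In tumor against blood neutrophils, 55 were tested, 9 were higher and 2 lower, with a median log2 fold change of 0.37 against 0.11 over all genes. These are 11 of 55, where 17.9% of all genes passed, 12.5% higher and 5.39% lower. Hamp, which encodes hepcidin, measured 8.32, 10.4, 4.30 and 3.11 RPKM in tumor neutrophils and at most 0.277 RPKM in blood (log2 fold change 6.24, SE 1.19, adjusted p = 0.00533), and its near-identical neighbour Hamp2 could share these reads. Tumor epithelial cells held more Hamp, 10.7 to 34.0 RPKM, and replicate 4, with epithelial markers at 4.90%, held 3.11 RPKM; the epithelial part was not tested. Hmox1, the enzyme that frees iron from heme, was 21.5 to 40.8 RPKM in tumor neutrophils and 5.60 to 8.78 RPKM in blood (2.17, SE 0.32, adjusted p = 0.00148). Ltf, the iron-binding granule protein lactoferrin, was lower (-4.11, SE 0.45, adjusted p = 0.000562), at 1.02 to 1.87 against 11.4 to 33.8 RPKM. Without tumor neutrophil replicate 1, 9 of 55 were higher and 1 lower, where 16.7% of all genes passed.

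In tumor against blood monocytes, 7 of 56 were higher and 3 lower, with a median of 0.00 against -0.03 over all genes. Of all genes 17.1% passed, 10.9% higher and 6.28% lower. Hmox1 was again higher (2.88, SE 0.46, adjusted p = 0.00205), at 20.4 to 85.3 against 5.06 to 9.16 RPKM. Alas1, the first enzyme of heme synthesis, was 7.66 to 10.2 RPKM in tumor and 1.22 to 1.84 RPKM in blood monocytes (2.90, SE 0.25, adjusted p = 3.7e-05), and the ferric reductase Steap4 was higher (4.76, adjusted p = 0.00891). Fech, which inserts iron into heme, was lower (-1.94, adjusted p = 0.0324), as was Ltf (-3.34, adjusted p = 0.000595). In blood monocytes 1 to 4, Fech measured 5.96, 2.81, 2.76 and 3.505 RPKM, with erythroid markers at 741, 533, 6.12 and 28.97 RPKM. Tumor monocytes held at most 1.27 RPKM of Fech and 2.61 RPKM of these markers. The immature neutrophil markers, among them Ltf, summed to 89.3 to 329 RPKM in blood and 27.5 to 127 RPKM in tumor monocytes. The part of erythroid and neutrophil transcripts was not tested.

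For 6 of 65 genes, neutrophils and monocytes differed in how they changed between blood and tumor, as for 3.99% of all genes (2.73% more positive in neutrophils and 1.26% more negative). Of the 6, 4 were more positive in neutrophils, among them the zinc importer Slc39a10 (5.72, adjusted p = 0.0095), the heme enzyme Cpox (5.32, adjusted p = 0.0103) and Aco1, the other iron regulatory protein (3.12, adjusted p = 0.0346). Steap4 (-5.30, adjusted p = 0.00802) and the mitochondrial iron importer Slc25a37 (-2.23, adjusted p = 0.0481) were more negative. Without tumor neutrophil replicate 1, Aco1 (adjusted p = 0.0556) and Slc25a37 (adjusted p = 0.073) no longer passed. In blood monocytes 1 to 4 of tumor-bearing mice, Slc25a37 measured 6.44, 8.86, 2.44 and 2.96 RPKM. Their erythroid markers summed to 741, 533, 6.12 and 29.0 RPKM. Blood neutrophils 1 to 4 of these mice held 11.2, 12.7, 16.8 and 17.3 RPKM of Slc25a37. Their erythroid markers summed to 9.51, 84.0, 1066 and 790 RPKM, and the part of erythroid transcripts was not tested. In blood neutrophils Cpox measured at most 0.0193 RPKM and Slc39a10 at most 0.0782 RPKM. Steap4 measured at most 0.144 RPKM in blood monocytes, while it was 47.3 to 81.55 RPKM in blood and 20.1 to 61.4 RPKM in tumor neutrophils. These low levels make the values of Cpox, Slc39a10 and Steap4 depend on the prior count.

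Within tumors, 4 of 61 genes were higher and 4 lower in neutrophils than in monocytes, where 7.71% of all genes passed, 4.74% higher and 2.97% lower. Steap4 (5.76, adjusted p = 0.0021), the siderophore-binding protein Lcn2 (5.40, adjusted p = 0.00194) and Fbxl5, which marks the iron regulatory proteins for degradation (2.66, adjusted p = 0.0143), were higher. Lrp1, a receptor for heme bound to hemopexin (-4.53, adjusted p = 0.000201), Hfe, a partner of the transferrin receptors (-4.97, adjusted p = 0.0304), and the zinc exporter Slc30a1 (-3.67, adjusted p = 0.0245) were lower. Without tumor neutrophil replicate 1, 7 were higher and 6 lower, and 13% of all genes passed. In healthy blood, 11 of 56 were higher and 18 lower in neutrophils, near the 50.8% of all genes that passed (24.2% higher and 26.6% lower), with Steap4 (10.63), Lcn2 (6.86) and Slc39a4 (5.87) the largest upward and Hfe (-7.29), Lrp1 (-6.51) and Steap3 (-6.41) the largest downward of those at 1 RPKM or more.

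In blood, 4 of 50 genes were higher in neutrophils of tumor-bearing mice and none lower, in a comparison in which 6.52% of all genes passed, 3.59% higher and 2.93% lower. Ltf had a log2 fold change of 5.13 (adjusted p = 0.00134), Lcn2 of 3.14 (adjusted p = 0.00376) and the copper transporter Slc31a2 of 1.54 (adjusted p = 0.00362). In monocytes 2 of 59 passed, where 0.216% of all genes did: Ltf (4.65, adjusted p = 0.00396) and Lcn2 (4.94, adjusted p = 0.0374). Both encode neutrophil granule proteins, and the 6 neutrophil markers summed to 78.8 to 187 RPKM in these monocytes against 22.6 to 108 RPKM in healthy ones; their part was not tested.

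In epithelial cells 15 of 72 of these genes were higher and 14 lower in tumors, where 22.6% of all genes passed, 10.6% higher and 12% lower. Hamp was 10.7 to 34.0 RPKM in tumor and 0 to 0.948 RPKM in healthy epithelium (6.04, SE 1.09, adjusted p = 0.00262), and the zinc transporter Slc30a2 was 1.27 to 3.34 against 0 to 0.0393 RPKM (6.64, SE 0.71, adjusted p = 0.000137). Heph, the copper oxidase that works with Slc40a1 in iron export from enterocytes, was lower, at 0.111 to 0.483 against 0.483 to 2.84 RPKM (-3.62, SE 0.33, adjusted p = 5.64e-05). Abcg2 (-4.57, adjusted p = 6.53e-05), an exporter of heme and other substrates, and the manganese exporter Slc30a10 (-7.48, adjusted p = 5.51e-05) were lower as well. Without healthy epithelial replicate 4, 20 of 74 were higher and 14 lower, and 23.3% of all genes passed.

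In stromal cells 9 of 72 were higher and 6 lower in tumors, where 9.55% of all genes passed, 3.99% higher and 5.56% lower. Hamp (7.04, adjusted p = 0.0104) and Slc30a2 (5.57, adjusted p = 0.0255) were higher in libraries with epithelial transcripts, with Hamp at 27.8, 24.4, 8.79 and 1.55 RPKM in libraries 1, 2, 3a and 3b, which held epithelial markers at 93.9%, 48.4%, 19.9% and 12.2% of their epithelial level. The epithelial part was not tested. Without libraries 1 and 2, Hamp was 5.30 (adjusted p = 0.0327) and Slc30a2 2.99 (adjusted p = 0.144). The ferritin receptor Scara5 (-5.82, adjusted p = 0.0134, and 0.0597 without libraries 1 and 2), Steap3 (-4.81, adjusted p = 0.00483) and Lrp1 (-4.24, adjusted p = 0.00486) were lower, in libraries with few fibroblast transcripts, whose part was not tested. Healthy stromal replicate 4 held 22.75 RPKM of Scara5, against 1.16 to 3.36 RPKM in the other healthy libraries. Leaving it out gave a log2 fold change of -4.15 for Scara5 (adjusted p = 0.00641 in edgeR). Without libraries 1 and 2, 8 of 75 were higher and 4 lower, and 6.14% of all genes passed.

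Between healthy epithelial and stromal cells, 13 of 65 were higher and 16 lower in epithelium, where 38.1% of all genes passed, 15.6% higher and 22.5% lower. The zinc importer Slc39a4 (6.09), Slc30a10 (5.84) and Heph (3.89) were higher, and the ferric reductase Cybrd1 (-7.99), Scara5 (-6.83) and the hepcidin inducer Bmp6 (-5.66) lower. The change from healthy to tumor differed between epithelium and stroma for 18 of 76, 8 of them more positive in epithelium, and for 15.1% of all genes, 7.21% more positive and 7.93% more negative. More positive were, among others, Cybrd1 (8.01, adjusted p = 0.000159), Scara5 (5.85, adjusted p = 0.0284) and Bmp6 (4.86, adjusted p = 0.000807). In healthy epithelium Cybrd1 measured at most 0.00903 RPKM (3 counts), so its values depend on the prior count. In tumor epithelium it measured 0.1175 to 0.524 RPKM. Stromal Cybrd1 was 1.397 to 2.055 RPKM in healthy colon and 0.09305 to 0.817 RPKM in tumors. Stromal Bmp6 was 3.18 to 7.97 and 0.267 to 1.496 RPKM in the same order. Fibroblast markers summed to 355 to 2010 RPKM in healthy and 5.97 to 23.97 RPKM in tumor stroma, and their part was not tested. Haptoglobin, Hp (-6.84, adjusted p = 0.019), Slc30a10 (-5.58, adjusted p = 0.00546) and Slc39a4 (-5.44, adjusted p = 0.00196) were among the more negative ones. In epithelial libraries Hp measured at most 0.1255 RPKM. Tumor stromal libraries 1, 2, 3a and 3b held 0.384, 0.301, 10.3 and 4.29 RPKM of Hp. Their neutrophil markers summed to 40.9, 8.46, 1508 and 511 RPKM. Of Slc39a4 they held 3.01, 1.53, 0.589 and 0.817 RPKM, with epithelial markers at 93.9%, 48.4%, 19.9% and 12.2%. The part of these neutrophil and epithelial transcripts was not tested. Scara5 lost its call without tumor stromal replicates 1 and 2 (6.17, adjusted p = 0.0681) and without healthy stromal replicate 4 (4.14, adjusted p = 0.083), and Hp without healthy epithelial replicate 4 (-5.11, adjusted p = 0.0632).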

How the data were processed

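Sorted cell populations of mouse blood, colon and colon tumors were profiled by RNA sequencing after amplification with a kit that does not mark strand. The authors deposited expected counts (estimated counts, 99.6% of nonzero values not whole) and RPKM per gene for 40 libraries, mapped to mm10 with Bowtie2 and quantified in HTSstation. Libraries summed to 10717873 to 38002939 counts, and intervals cover the spread between libraries only.

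Expected counts were rounded and tested in R 4.3.3 with edgeR 4.0.16 (TMM, filterByExpr, quasi-likelihood F test), 1 fit per comparison over its groups, with Benjamini-Hochberg adjustment over all genes. The study's methods used limma-voom, run here as an alternative (limma 3.58.1), as was DESeq2 1.42.0. Ensembl identifiers were named from GENCODE M21 (45143 genes matched). Scripts were tested on simulated data. Levels between genes are compared per length, in RPKM.

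The 10 members and the lists of 82 genes were chosen with earlier results of these data known. Named besides the members were, per comparison, up to 3 list genes in each direction with the largest log2 fold change among those with an adjusted p under 0.05, a log2 fold change beyond 1.5 and a mean of at least 1 RPKM in a group, and the 3 genes most like each member. Tumor stromal libraries 3a and 3b share the replicate number 3 in the labels. Promoter sequences came from RefSeq and matched 7 of the 10 members. Fits of the list genes without single libraries were added after seeing the data.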

Additional observations from a re-analysis of the deposited data

Results flagged for a closer look

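In each group of 4 libraries, the highest or lowest value was compared with the other 3, and 10 of 100 groups held a library far from the rest (Dixon's 95% value), where chance gives about 1 in 20. Healthy stromal replicate 4 accounted for 4 of them: Mt1 at 119 RPKM (the others 3.34 to 11.2), Mt2 at 132 RPKM (2.35 to 11.3), Ftl1 at 1.55 RPKM (3.90 to 4.26) and Slc40a1 at 0.259 RPKM (0.777 to 0.861). Healthy epithelial replicate 4 stood apart for Tfrc at 1.36 RPKM (9.27 to 9.76), in the library with the highest mitochondrial share, and tumor neutrophil replicate 1 for Slc39a14 at 0.369 RPKM (0.0201 to 0.0615), in the library with the highest epithelial level of its group.

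The other 4 were single values. Slc11a1 was 0.152 RPKM in healthy stromal replicate 2 (0.240 to 0.248), Slc11a2 was 0.0656 RPKM in healthy blood neutrophil replicate 3 (0.0203 to 0.0243), Slc40a1 was 0.0902 RPKM in tumor monocyte replicate 2 (0.0113 to 0.0224), and Slc40a1 was 14.3 RPKM in blood neutrophil replicate 1 of tumor-bearing mice (17.4 to 17.6).

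The change from healthy to tumor tissue differed between epithelial and stromal cells, by an interaction test in edgeR, for Slc40a1 (log2 difference -2.87, adjusted p = 0.0143) and Ireb2 (log2 difference -0.99, adjusted p = 0.0387).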

How the results depend on the processing

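Counts of members that passed are given here for every setting that moved them by more than 1.5 times. In tumor against blood neutrophils the 5 became 8 with all 40 libraries in 1 fit. In blood neutrophils of tumor-bearing against healthy mice the 2 became 0 without a filter on low counts or with all 40 libraries, and 1 with limma on log2 RPKM plus 1 or plus 0.1. In blood monocytes the 1 became 2 with DESeq2 and 0 with limma-voom, without the filter or with all 40 libraries. In epithelium the 1 became 3 with DESeq2 and 0 in both RPKM fits. In stroma the 0 became 2 with DESeq2, 1 with RLE size factors, 3 with all 40 libraries and 1 without tumor stromal replicates 1 and 2. In tumor neutrophils against monocytes the 3 became 6 with all 40 libraries and 5 with limma-voom, DESeq2 or either RPKM fit. In healthy epithelial against stromal cells the 2 became 4 with limma-voom and 5 with all 40 libraries. For the neutrophil and monocyte interaction the 0 became 3 with RPKM plus 1 and 2 with DESeq2, all 40 libraries or RPKM plus 0.1, and for the epithelial and stromal interaction the 2 became 0 in both RPKM fits and 1 without the filter, with all 40 libraries or without tumor stromal replicates 1 and 2.

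With the replicate number as a block (replicate block), 0 members passed in the blood neutrophil comparison, 0 in the blood monocyte comparison and 1 in the epithelial and stromal interaction, against 5 and 7 as before in tumor against blood neutrophils and monocytes. Same-numbered libraries correlated at -0.130 to 0.211 in their deviations and no comparison had every pair above 0.1. These pairs follow the replicate numbers of the labels, and pairs by the numbers in the sample titles were not tested. Over all genes the block gave 1424 calls for 2442 in tumor against blood neutrophils, 1701 for 2618 in monocytes, 482 for 871 and 14 for 33 in blood, 621 for 1156 within tumors and 398 for 696 in the interaction of neutrophils and monocytes.

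Leaving out each library in turn gave 4 to 7 members in tumor against blood neutrophils, 7 to 7 in monocytes, 0 to 1 and 0 to 0 in the blood comparisons, 1 to 2 in epithelium, 0 to 1 in stroma, 5 to 6 in healthy blood neutrophils against monocytes, 2 to 6 within tumors, 2 to 4 in healthy epithelium against stroma, 0 to 1 for the neutrophil and monocyte interaction and 1 to 3 for the epithelial and stromal one. Signs turned in 5 fits, none past the threshold: Mt2 in stroma under the replicate block (0.078), Mt2 in healthy epithelial against stromal cells without healthy stromal replicate 4 (0.58, with a range of -2.60 to 0.58 over the libraries left out), Slc11a2 in the neutrophil and monocyte interaction with RPKM plus 1 (-0.55), and Ireb2 in the epithelial and stromal interaction with RPKM plus 1 (0.061) and plus 0.1 (0.15). Of 506 single-member values in other settings 429 kept direction and side of the threshold, as did 397 of 448 with a library left out. Mt1 in tumor against blood monocytes missed with all 40 libraries (adjusted p = 0.101), Slc11a1 in tumor against blood neutrophils likewise (0.0879), and Slc11a2 there with RPKM plus 1 (0.105). The causes were not tested.

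Calls over all genes also moved: DESeq2 gave 3767 for 2442, 1737 for 871, 449 for 33, 3624 for 1822, 2627 for 1156 and 2005 for 696, in the order of tumor against blood neutrophils, both blood comparisons, stroma, tumor neutrophils against monocytes and their interaction. All 40 libraries in 1 fit gave 7194, 438, 18, 5293 and 2148 in the same comparisons without stroma, limma-voom gave 18 for 33 in blood monocytes, and the RPKM fits gave 1831 (plus 1) and 1792 (plus 0.1) for 1156. Low counts limit Mt1 and Mt2 in blood cells, Slc11a2 in blood neutrophils and Slc40a1 in monocytes.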
